A study of Mus musculus with 12 samples.

Results

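The GIMAP proteins are GTPases of immunity-associated proteins, a family of small GTP-binding proteins made mainly by lymphocytes. The 8 mouse members measured here were Gimap1, Gimap3, Gimap4, Gimap5, Gimap6, Gimap7, Gimap8 and Gimap9, of 18193 genes named on the array. Probe sets were chosen by symbol, not by expression. Every probe set that the array annotation assigns to a member was kept, which gave 11 probe sets. The members themselves were chosen with earlier results of these data known. Gimap4, Gimap6 and Gimap7 had a pair of probe sets each and the other genes had a single one. All 11 probe sets passed the filter on dim probe sets, with normalized log2 values between 4.91 and 12.26.

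GIMAP proteins bind GTP and many of them sit on the membranes of the endoplasmic reticulum, Golgi or lysosomes. They are best known for their part in the survival and death of lymphocytes: loss of Gimap5 leaves rats and mice with few T cells, and Gimap1 is needed for mature B and T cells in mice. Gimap4 speeds the death of T cells, Gimap6 binds proteins of the autophagy machinery, and Gimap3 is a close relative of Gimap5.

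The study put RNA of 4 cell types of mice with the C57BL/10.RIII strain background on Affymetrix Mouse430_2 arrays, 3 arrays per cell type and 12 in all. Cells titled neuron induced FoxA1Treg, called natural FoxA1Treg in the cell type field and nFoxA1Treg here, carried the surface labels CD4hi and PD-L1hi. Cells titled IFN-beta induced FoxA1Treg, called iFoxA1Treg here, carried the same surface labels. Treg were labelled CD4+ and TGFbeta+, and the encephalitogenic T cells, called EncT here and known as the T cells that drive autoimmune inflammation of the brain, were labelled CD4+. The age, sex and tissue of the mice, and whether animals were pooled, are not stated in the labels. Whether the 3 arrays of a group stem from different animals or cultures is not stated either. The p-values therefore cover the spread between these arrays alone, and that spread may be technical.

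Some arrays went against their labels. On the 3 arrays labelled iFoxA1Treg the normalized log2 level of Cd4 was 4.24 ± 0.10, against 10.44 ± 0.07 for nFoxA1Treg, 10.39 ± 0.06 for Treg and 10.57 ± 0.02 for EncT (SD, 3 arrays each). The summed linear level of 8 T cell markers was 4727 to 5043 on the iFoxA1Treg arrays, against 15463 to 16071 in nFoxA1Treg, 16158 to 16263 in Treg and 16754 to 17548 in EncT. Markers of B cells (7 genes), macrophages (8 genes), neutrophils (7 genes) and dendritic cells (7 genes) summed to at least 7497 on each iFoxA1Treg array and to at most 430 on any other array, where Cd79a, Cd79b, Blk, Itgam, Mpeg1, S100a8, S100a9, Mpo, Camp, Ltf, Csf3r, Flt3 and Siglech lay below the filter level of 4.05 by their group means. Markers of endothelium (8 genes) summed to 397 to 444 on the iFoxA1Treg arrays and 324 to 399 on the others. The female-specific RNA Xist was at 2.11 ± 0.85 on these arrays, against 11.47 ± 0.27 for nFoxA1Treg, 11.52 ± 0.27 for Treg and 11.07 ± 0.44 for EncT (SD, 3 arrays each), so cell type, cell mixture and sex cannot be told apart in comparisons with them. Cd274, the gene of PD-L1, was at 10.01 ± 0.04 on the iFoxA1Treg arrays, the highest of the groups, as their label PD-L1hi says. In nFoxA1Treg, which carries the same label, it was at 7.34 ± 0.13, against 7.31 ± 0.04 for Treg and 7.63 ± 0.16 for EncT (SD, 3 arrays each). Foxa1 was below the filter level in all 4 groups. The array medians as deposited ran from 4.64 to 4.84.

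In the mouse genome build GRCm38.p6 the 8 genes form an unbroken cluster of 124 kb on chromosome 6. The cluster runs from Gimap8, whose annotated start is base 48647186, through Gimap9, Gimap4, Gimap6, Gimap7, Gimap1 and Gimap5 to Gimap3. Gimap3 lies on the minus strand, so its annotated start, base 48770851, is the last base of the cluster. All 8 protein-coding genes in this span are members. RefSeq also lists "Gimap5" among the older names of Gimap3, so older names for this pair overlap. The 250 bases before the RefSeq start site are shown for 5 members that differed from EncT in opposite directions on the arrays labelled iFoxA1Treg: Gimap3, Gimap4 and Gimap7, all of whose probe sets were lower there than in EncT, and Gimap1 and Gimap9, which were higher. The windows lie at chr6:48770852-48771101 on the minus strand for Gimap3, and on the plus strand at chr6:48684328-48684577 for Gimap4, chr6:48718371-48718620 for Gimap7, chr6:48738797-48739046 for Gimap1 and chr6:48675885-48676134 for Gimap9. Each is written 5′ to 3′ along its gene, with capitals for matches, on either strand, to TGTGGT (bound by RUNX factors), CAGGAAG (ETS), TGTTTAC (forkhead), CACCC (KLF) and TATAAA (the TATA box).
Gimap3: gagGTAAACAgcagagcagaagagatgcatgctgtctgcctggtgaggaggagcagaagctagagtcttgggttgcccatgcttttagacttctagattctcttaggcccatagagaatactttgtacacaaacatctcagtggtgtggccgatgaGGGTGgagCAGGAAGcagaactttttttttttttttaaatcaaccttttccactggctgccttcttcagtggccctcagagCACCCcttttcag
Gimap4: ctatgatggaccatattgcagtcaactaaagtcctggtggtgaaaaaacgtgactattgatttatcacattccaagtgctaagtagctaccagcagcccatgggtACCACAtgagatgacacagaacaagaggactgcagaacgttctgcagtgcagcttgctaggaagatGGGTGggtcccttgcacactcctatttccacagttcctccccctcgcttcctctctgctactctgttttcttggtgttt
Gimap7: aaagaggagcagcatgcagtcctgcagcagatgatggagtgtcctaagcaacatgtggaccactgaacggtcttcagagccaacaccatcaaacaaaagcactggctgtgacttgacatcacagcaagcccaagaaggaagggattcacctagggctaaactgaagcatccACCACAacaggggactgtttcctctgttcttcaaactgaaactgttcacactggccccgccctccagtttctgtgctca
Gimap1: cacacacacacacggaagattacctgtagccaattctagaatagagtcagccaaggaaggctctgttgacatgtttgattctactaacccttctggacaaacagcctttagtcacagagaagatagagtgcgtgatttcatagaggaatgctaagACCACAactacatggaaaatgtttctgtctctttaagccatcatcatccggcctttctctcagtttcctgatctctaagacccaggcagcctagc
Gimap9: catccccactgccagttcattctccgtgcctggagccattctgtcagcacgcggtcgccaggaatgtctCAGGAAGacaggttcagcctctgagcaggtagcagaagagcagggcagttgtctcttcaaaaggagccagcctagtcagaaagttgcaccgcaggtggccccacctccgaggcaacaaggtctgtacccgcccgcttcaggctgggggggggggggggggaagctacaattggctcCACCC

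The RUNX letters stood in the windows of 3 member genes, Gimap4, Gimap7 and Gimap1, and in 14% of the 32851 windows of this length in the whole table. The ETS letters stood in those of Gimap9, Gimap5 and Gimap3, and in 10.8% of all windows. The forkhead letters stood before Gimap3 alone among the members, and in 3.17% of all windows. CACCC stood in the windows of 5 member genes and in 52.0% of all windows, and TATAAA in that of Gimap6 and in 12.4% of all windows. Matches of different motifs did not share bases in the 5 windows shown. The RUNX letters thus stood before genes lower on the iFoxA1Treg arrays than in EncT (Gimap4 and Gimap7, both probe sets of each) and before a gene higher there than in EncT (Gimap1). A match is only a description of the letters, and binding was not measured.

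**Figure D1:**
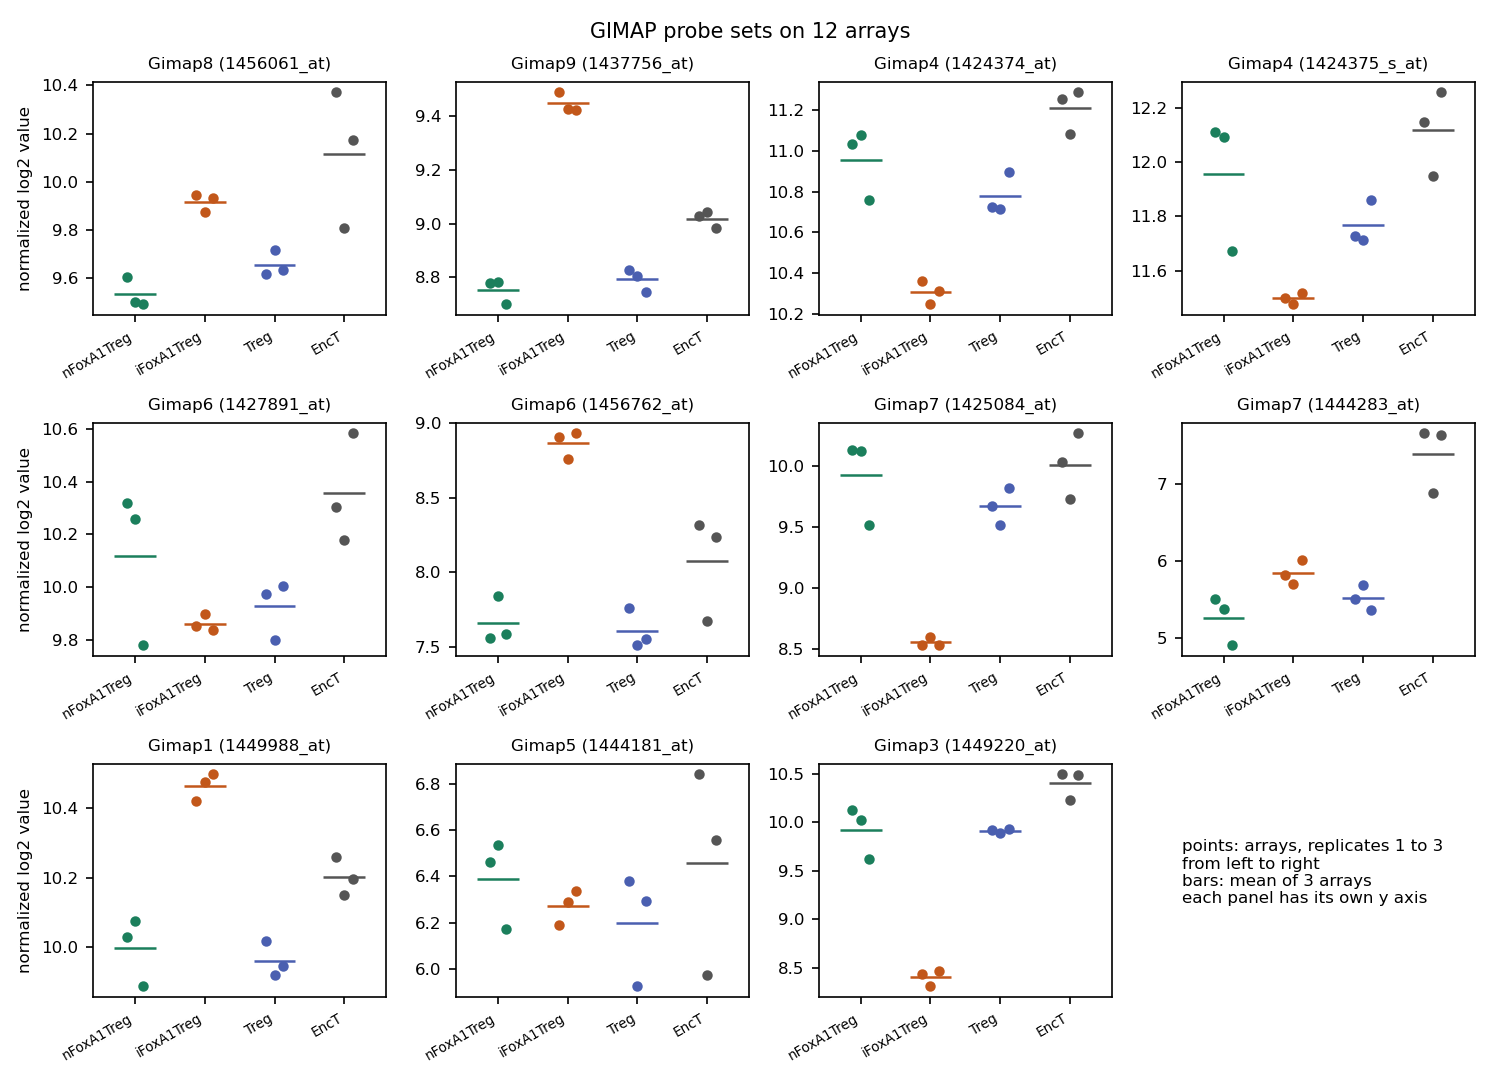
Normalized log2 value of each GIMAP probe set (y axis, its own scale in each panel) on the 3 arrays of nFoxA1Treg, iFoxA1Treg, Treg and EncT (x axis), with a bar at the group mean. Gimap3 and the Gimap7 probe set 1425084_at lay at 8.31 to 8.59 on the arrays labelled iFoxA1Treg and above 9.5 on all others, while Gimap9, Gimap1 and the Gimap6 probe set 1456762_at lay above all others there.

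Leaving the iFoxA1Treg arrays aside, every member probe set that was called against EncT was lower in the regulatory cells, and Gimap5 was called in neither regulatory group. In nFoxA1Treg against EncT, 5 of the 11 probe sets fell and 0 rose at an adjusted p under 0.05 (limma, Benjamini-Hochberg over 27022 probe sets), where 17.1% of all probe sets tested were called, 8.67% lower and 8.38% higher. The 5 probe sets belonged to Gimap7, Gimap8, Gimap9, Gimap3 and Gimap1. The differences of all 11 lay below 0, with a median of -0.25 on the log2 scale against 0.011 over all probe sets. The sign was not fixed for Gimap5 and for the Gimap7 probe set 1425084_at, whose differences of -0.07 and -0.09 became 0.04 and 0.12 without nFoxA1Treg replicate 3. The same turn of sign came without EncT replicate 1 for Gimap5 (0.12) and without EncT replicate 3 for Gimap7 (0.04). In bulk RNA, fewer cells of a type and less RNA per cell cannot be told apart.

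Some markers of other cell types were also called lower in the regulatory cells. Of all genes, 18.1% were called in nFoxA1Treg against EncT and 14.7% in Treg against EncT. Of 6 macrophage markers past the filter 2 were called lower in each regulatory group, Lyz2 (log2 difference -3.92 in nFoxA1Treg and -2.59 in Treg) and Cd14 (-0.49 and -0.50). Lyz2 averaged 1.25 in nFoxA1Treg and 2.59 in Treg, both below the filter level of 4.05, against 5.18 in EncT. It averaged 12.36 on the iFoxA1Treg arrays, and the size of its fall depends on the noise at low values. Of 4 dendritic cell markers 2 were called lower in each, the MHC class II genes H2-Aa (-2.08 in nFoxA1Treg and -0.90 in Treg) and Cd74 (-2.17 and -1.04). H2-Aa lay below the filter level by its group mean in nFoxA1Treg, so the size of that difference depends on the noise there. The macrophage markers summed to 187 to 242 in nFoxA1Treg and 215 to 246 in Treg, against 281 to 321 in EncT, and the dendritic cell markers to 115 to 196 in nFoxA1Treg and 206 to 254 in Treg, against 380 to 430 in EncT. Of 6 B cell markers, Cd79b and Ms4a1 were called lower in nFoxA1Treg and 0 in Treg. Cd79b averaged -0.35 ± 3.71 in nFoxA1Treg and 3.79 ± 0.80 in EncT (SD, n = 3 each). Ms4a1 averaged 2.92 ± 1.18 in nFoxA1Treg and 4.70 ± 0.83 in EncT (SD, n = 3 each). All but the last lay below the filter level. The iFoxA1Treg arrays averaged 12.17 and 12.24 for these genes. Lyz2, Cd79b and Ms4a1 passed the filter on the mean of all 12 arrays through their high values on the iFoxA1Treg arrays, which are not part of these comparisons. The Cd79b and Ms4a1 calls therefore rest on values near the noise. Of 8 T cell markers Zap70 and Bcl11b were called lower in both regulatory groups. Of 6 CD8 T and NK cell, 2 neutrophil and 4 endothelium markers past the filter 0 were called in either comparison (limma). The part of these markers in the GIMAP results was not tested.

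Gimap7, a GTPase whose human counterpart activates other members by pairing with them, had the widest gap. Its probe set 1444283_at read 5.51, 5.37 and 4.91 in nFoxA1Treg, against 7.66, 6.88 and 7.64 in EncT. In Treg it read 5.51, 5.69 and 5.37. EncT replicate 2 was the lowest EncT array, yet it lay above every nFoxA1Treg and Treg array, so neither regulatory group overlapped with EncT. The log2 difference was -2.13 ± 0.21 (SE) in nFoxA1Treg against EncT, which is 4.37-fold lower (limma adjusted p = 6.25e-05). In Treg against EncT it was -1.87 ± 0.21 (SE), or 3.65-fold lower (limma adjusted p = 0.000229).

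The other Gimap7 probe set, 1425084_at, did not show this gap. It read 10.13, 10.12 and 9.51 in nFoxA1Treg, against 10.03, 9.72 and 10.27 in EncT, with values that crossed between the groups (log2 difference -0.09, 95% interval -0.43 to 0.25, limma adjusted p = 0.781). In Treg it read 9.67, 9.51 and 9.82, which also overlapped with EncT (log2 difference -0.34, limma adjusted p = 0.178). The distance between the Gimap7 probe sets on the same array was 4.61 to 4.75 in nFoxA1Treg and 3.82 to 4.45 in Treg, against 2.37 to 2.85 in EncT. These ranges did not overlap, with an exact two-sided permutation p of 0.1 for each regulatory group against EncT, the smallest that 3 arrays against 3 can give. The files do not say which part of the transcript either probe set covers, and which of them follows the level of Gimap7 was not tested.

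Gimap8, the largest protein of the family, with several GTPase domains, read 9.61, 9.5 and 9.49 in nFoxA1Treg, against 10.37, 9.81 and 10.17 in EncT. Treg read 9.62, 9.72 and 9.64. The lowest EncT array, replicate 2, was still above the highest array of either regulatory group. Gimap8 was 1.5-fold lower in nFoxA1Treg than in EncT (log2 difference -0.58 ± 0.10 SE, limma adjusted p = 0.00252) and 1.38-fold lower in Treg than in EncT (log2 difference -0.46 ± 0.10 SE, limma adjusted p = 0.0115). The Treg call ended with only the 6 arrays of these groups (adjusted p = 0.0526).

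Gimap3 read 10.13, 10.02 and 9.62 in nFoxA1Treg, against 10.50, 10.23 and 10.49 in EncT. Its Treg values of 9.92, 9.90 and 9.93 were the tightest of any member in that group. Both regulatory groups lay wholly below EncT. With only the 6 arrays of the groups compared, the nFoxA1Treg call of Gimap3 ended (adjusted p = 0.0514). Gimap3 was 1.4-fold lower in nFoxA1Treg than in EncT (limma adjusted p = 0.0103) and 1.4-fold lower in Treg than in EncT (limma adjusted p = 0.0115).

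Among the called members, Gimap9 and Gimap1 moved least, with little spread. Gimap9 averaged 8.75 ± 0.05 in nFoxA1Treg and 8.79 ± 0.04 in Treg, against 9.02 ± 0.03 in EncT (SD, n = 3 each), which is 1.2-fold lower in nFoxA1Treg (limma adjusted p = 0.00315) and 1.17-fold lower in Treg (limma adjusted p = 0.00973, and 0.0524 with only the 6 arrays of these groups). Gimap1, the member that mature lymphocytes need, averaged 10.00 ± 0.10 in nFoxA1Treg and 9.96 ± 0.05 in Treg, against 10.20 ± 0.05 in EncT (SD, n = 3 each). Gimap1 was 1.15-fold lower in nFoxA1Treg (limma adjusted p = 0.0220) and 1.18-fold lower in Treg (limma adjusted p = 0.0119). The nFoxA1Treg call of Gimap1 ended without nFoxA1Treg replicate 3 (adjusted p = 0.0712), EncT replicate 1 (0.0682) or EncT replicate 3 (0.0517), with arrays centred on their medians (0.0800) and with only the 6 arrays of these groups (0.0892), and the Treg call without Treg replicate 2 (0.0566).

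In Treg against EncT, 9 of the 11 probe sets fell and 0 rose (limma), where 14.0% of all probe sets were called, 7.69% lower and 6.35% higher. The median difference of the 11 was -0.43 on the log2 scale, against 0.0081 over all probe sets. Without Treg replicate 2 the count was 5, and without EncT replicate 2 it was 11. This comparison and the one before it share the 3 EncT arrays, so they are not independent. Gimap4 and Gimap6 were called here and not in nFoxA1Treg, and no member was called when the regulatory groups were compared with each other.

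Gimap4, the member that speeds T cell death, read 11.03, 11.08 and 10.76 on probe set 1424374_at in nFoxA1Treg, against 11.26, 11.08 and 11.29 in EncT. In Treg it read 10.72, 10.71 and 10.89, below every EncT array. The Treg difference from EncT was -0.43 ± 0.08 (SE, log2), 1.35-fold lower (limma adjusted p = 0.00497), and that of nFoxA1Treg was -0.25 ± 0.08 (SE, log2, adjusted p = 0.0529). In nFoxA1Treg this probe set was called without EncT replicate 2 (adjusted p = 0.0211) or nFoxA1Treg replicate 2 (0.0446). The other Gimap4 probe set, 1424375_s_at, whose suffix marks probes that match more than a single transcript, averaged 11.96 ± 0.25 in nFoxA1Treg and 11.77 ± 0.08 in Treg, against 12.12 ± 0.16 in EncT (SD, n = 3 each). Its Treg call (limma adjusted p = 0.0394) ended when any array but EncT replicate 2 was left out (adjusted p 0.0611 to 0.135).

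Gimap6, the member tied to autophagy, averaged 10.12 ± 0.30 in nFoxA1Treg and 9.93 ± 0.11 in Treg, against 10.36 ± 0.21 in EncT on probe set 1427891_at (SD, n = 3 each). On probe set 1456762_at it averaged 7.66 ± 0.16 in nFoxA1Treg and 7.61 ± 0.13 in Treg, against 8.08 ± 0.35 in EncT (SD, n = 3 each), and EncT replicate 2 at 7.67 lay within the regulatory arrays. Both fell in Treg (limma adjusted p = 0.0413 and 0.0462), and both calls ended when any array but EncT replicate 2 was left out (adjusted p 0.0686 to 0.154 for 1427891_at and 0.0525 to 0.156 for 1456762_at). In nFoxA1Treg neither was called, with adjusted p of 0.243 for 1427891_at and 0.0652 for 1456762_at (limma), and 1456762_at was called without EncT replicate 2 (0.00127).

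Gimap5, the member whose loss costs rats and mice their T cells, varied widely over the EncT arrays. It read 6.46, 6.53 and 6.17 in nFoxA1Treg and 6.38, 5.92 and 6.29 in Treg, against 6.84, 5.97 and 6.56 in EncT. The groups overlapped, and the differences from EncT were -0.07 in nFoxA1Treg (95% interval -0.48 to 0.35) and -0.26 in Treg (95% interval -0.67 to 0.16). Neither was called (limma adjusted p = 0.863 and 0.424). Without EncT replicate 2 the Treg difference of Gimap5 (adjusted p = 0.0422) and that of the Gimap7 probe set 1425084_at (0.0495) passed the threshold. Of the 11 probe sets, 6 in nFoxA1Treg and 8 in Treg did not overlap with EncT, where 32.5% and 32.1% of all probe sets tested did not overlap.

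**Figure D2:**
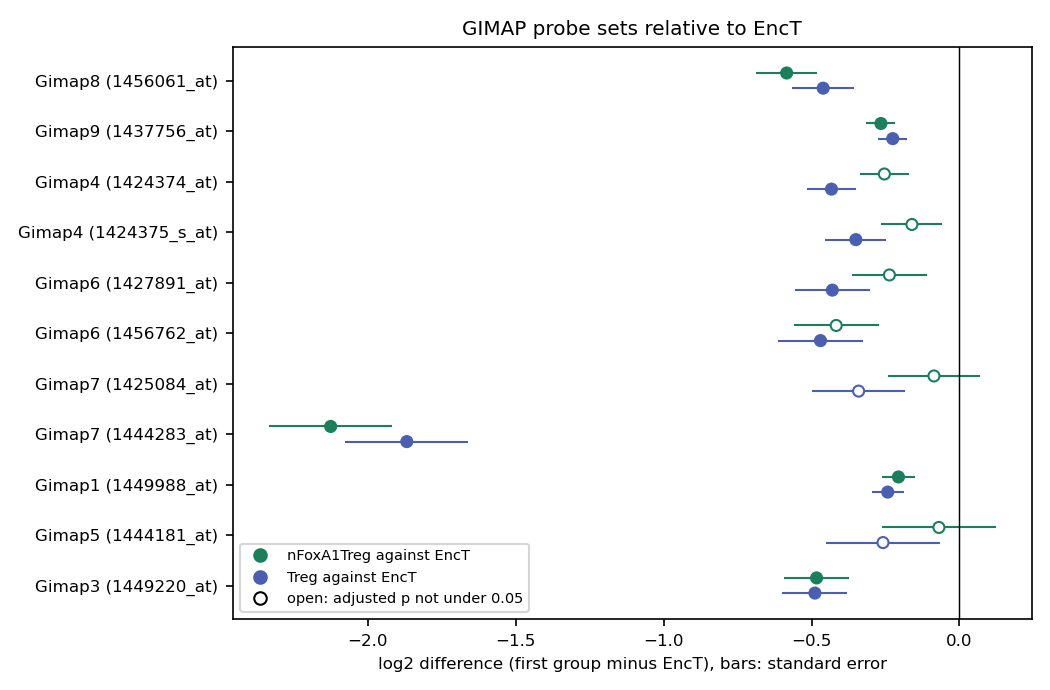
Log2 difference from EncT (x axis) of each GIMAP probe set (y axis, in gene order along the chromosome) for nFoxA1Treg (upper point of each pair) and Treg (lower point), with bars for the standard error and open points for an adjusted p not under 0.05. All 22 points lie below 0, and the Gimap7 probe set 1444283_at stands apart at -2.13 and -1.87.

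In nFoxA1Treg against Treg, 0 of the 11 probe sets were called in limma and 0 had an unadjusted p under 0.05, where 0.00740% of all probe sets (2 of 27022) were called. The median difference was 0.05 on the log2 scale, against 0.0067 over all probe sets. The nearest to the threshold was Gimap4 on 1424374_at, at 0.18 higher in nFoxA1Treg (95% interval -0.00062 to 0.36, unadjusted p = 0.0507, limma). The 95% intervals of the brightest probe sets reached from -0.09 to 0.59 for Gimap7, from -0.23 to 0.24 for Gimap3, from -0.35 to 0.10 for Gimap8 and from -0.08 to 0.15 for Gimap1. They reached from -0.15 to 0.07 for Gimap9, from -0.03 to 0.41 for Gimap4 on 1424375_s_at, from -0.08 to 0.47 for Gimap6 on 1427891_at and from -0.23 to 0.60 for Gimap5, so the widest were those of Gimap5 and Gimap7. Only Gimap8 did not overlap between the groups, where 11.2% of all probe sets did not. The distance between the Gimap7 probe sets was wider in nFoxA1Treg (4.61 to 4.75) than in Treg (3.82 to 4.45), with an exact two-sided permutation p of 0.1, the smallest possible. Neither Gimap7 probe set was itself called between these groups. Several such tests of distances were run over genes and comparisons, and their p-values were not adjusted for that number.

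Within nFoxA1Treg and within EncT, most member probe sets were lowest on the same array. nFoxA1Treg replicate 3 was the lowest of its group in 10 of 11 probe sets, EncT replicate 2 in 10 of 11, Treg replicate 2 in 8 of 11 and iFoxA1Treg replicate 2 in 6 of 11. The share of all probe sets that were lowest on the same arrays is not given here, and Gimap4, Gimap6 and Gimap7 count with a pair of probe sets each. The median deviation of the 11 probe sets from their group mean was -0.22 on nFoxA1Treg replicate 3 and -0.18 on EncT replicate 2. On Treg replicate 2 and iFoxA1Treg replicate 2 the median deviation was small, at -0.056 and -0.022. With the values as deposited the median deviation of the members was -0.27 on nFoxA1Treg replicate 3, where that of all probe sets was -0.031. On EncT replicate 2 it was -0.17, where that of all probe sets was 0.0046. Summed T cell markers were 15463 on nFoxA1Treg replicate 3, the lowest of its group, and 17548 on EncT replicate 2, the highest of its group. Summed markers of CD8 T and NK cells (7 genes) were 4036 on nFoxA1Treg replicate 3, against 3799 and 3829 on the others of its group. In EncT they were 1298, 4434 and 4731, so the array that stood apart in this sum was replicate 1 and not replicate 2. The sum mostly follows Gzma, which averaged 11.37 ± 1.21 in EncT (SD, n = 3). The other markers of this list averaged at most 6.71 there. The part of these marker sums in the results was not tested.

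Between members, the correlation of these deviations from the group means over the 12 arrays was above 0 for 26 of 28 gene pairs and above 0.5 for 17 (brightest probe set of each gene). The median was 0.664 and the range -0.047 to 0.977. The highest value was between Gimap6 and Gimap7, and the lowest between Gimap8 and Gimap9. Gimap9 stood apart, with correlations of -0.047 to 0.38 with the other members. Gimap8 correlated at 0.29 to 0.46 with Gimap4, Gimap6, Gimap7 and Gimap1, and above 0.5 with Gimap5 and Gimap3. Correlations of gene pairs outside the family are not given here for comparison. The members share each array's RNA, labelling and scaling, so the correlations are a description and were not tested.

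**Figure D3:**
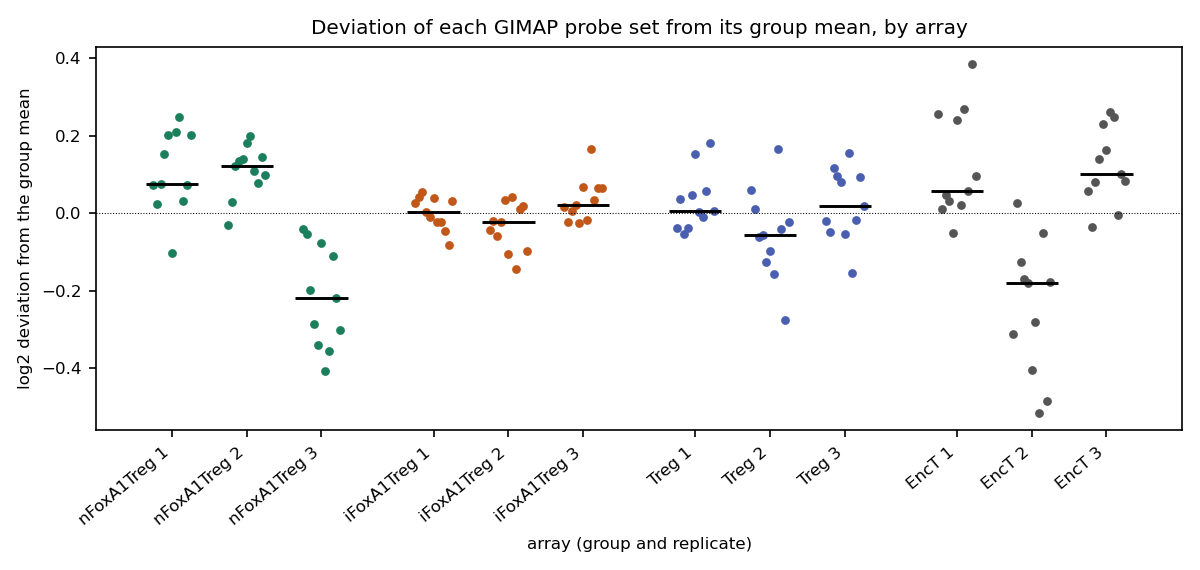
Deviation of each of the 11 GIMAP probe sets from its group mean (y axis, log2) on each of the 12 arrays (x axis), with a bar at the median. nFoxA1Treg replicate 3 and EncT replicate 2 have medians of -0.22 and -0.18, and the others lie between -0.056 and 0.122.

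On the arrays labelled iFoxA1Treg the family split. Against EncT, 3 probe sets were higher, 6 were lower and 2 were not called, where 70.2% of all probe sets were called (30.5% higher and 39.7% lower), so a call there was usual for any gene. Gimap3 and Gimap7 had the widest falls, Gimap4 fell less, and Gimap9 and Gimap1 rose. The share of higher calls among all called probe sets was 43.5%, and 32.9% with the values as deposited. The median of all probe sets was -0.074 with quantile normalization and -0.23 as deposited, and the directions of the called members in this comparison were the same on both scales. On these arrays the summed T cell markers were 4727 to 5043 and those of B cells 19217 to 20990, and the part of this mixture in the results was not tested.

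Gimap3 read 8.43, 8.31 and 8.47 on the iFoxA1Treg arrays, against 10.50, 10.23 and 10.49 in EncT. The nFoxA1Treg arrays at 9.62 and above and the Treg arrays at 9.90 and above were also higher than every iFoxA1Treg array. The fall was 4.0-fold against EncT (log2 difference -2.00 ± 0.11 SE, limma adjusted p = 2.65e-09), 2.87-fold against nFoxA1Treg (limma adjusted p = 3.68e-08) and 2.85-fold against Treg (limma adjusted p = 3.83e-08).

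Gimap7 on 1425084_at read 8.53, 8.59 and 8.53 on the iFoxA1Treg arrays, against 10.03, 9.72 and 10.27 in EncT, with no overlap with any other group. It was 2.74-fold lower than in EncT (limma adjusted p = 2.24e-06), 2.58-fold lower than in nFoxA1Treg (3.68e-06) and 2.17-fold lower than in Treg (2.60e-05). The probe set 1444283_at gave another order. It read 5.82, 5.70 and 6.01 on the iFoxA1Treg arrays, below EncT (2.92-fold lower, limma adjusted p = 1.88e-05) but above nFoxA1Treg (1.49-fold higher, limma adjusted p = 0.0239). The last call ended without nFoxA1Treg replicate 3 (adjusted p = 0.112), without iFoxA1Treg replicate 3 (0.0791) and with the values as deposited (0.141). Against Treg it was not called (log2 difference 0.32, adjusted p = 0.184).

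Gimap4 on 1424374_at read 10.36, 10.25 and 10.31 on the iFoxA1Treg arrays, below every array of the other groups. It was 1.87-fold lower than in EncT (limma adjusted p = 4.64e-07), 1.57-fold lower than in nFoxA1Treg and 1.38-fold lower than in Treg. Probe set 1424375_s_at fell in the same direction by 1.54-fold against EncT (limma adjusted p = 0.000124) and 1.37-fold against nFoxA1Treg (limma adjusted p = 0.00131). Its fall against Treg (limma adjusted p = 0.0316) ended without any single array except Treg replicate 2 (adjusted p up to 0.113) and with arrays centred on their medians (0.301).

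Gimap9 read 9.49, 9.43 and 9.42 on the iFoxA1Treg arrays, against 9.03, 9.04 and 8.98 in EncT. It lay above every array of the other groups, 1.35-fold higher than in EncT (limma adjusted p = 3.89e-06), 1.62-fold higher than in nFoxA1Treg (2.89e-08) and 1.57-fold higher than in Treg (5.22e-08). Gimap1 read 10.42, 10.48 and 10.50 there, against 10.26, 10.15 and 10.20 in EncT. It too lay above every other array, 1.2-fold higher than in EncT (limma adjusted p = 0.000784), 1.38-fold higher than in nFoxA1Treg and 1.42-fold higher than in Treg.

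The Gimap6 probe sets pointed in opposite directions on the iFoxA1Treg arrays. Probe set 1456762_at read 8.90, 8.76 and 8.93 there, against 8.32, 7.67 and 8.24 in EncT, 1.73-fold higher (limma adjusted p = 0.000270), while 1427891_at averaged 9.86 ± 0.03 there, against 10.36 ± 0.21 in EncT (SD, n = 3 each), 1.41-fold lower (limma adjusted p = 0.00363). The distance between them on the same array was 0.90 to 1.14 on the iFoxA1Treg arrays, against 1.99 to 2.76 on the other 9, with an exact two-sided permutation p of 0.1, the smallest possible, against each other group. No single direction can therefore be given for Gimap6 on these arrays. Against nFoxA1Treg and Treg, 1456762_at was 2.31-fold and 2.39-fold higher, and 1427891_at was not called (limma adjusted p = 0.0854 and 0.662), though it was called against nFoxA1Treg without nFoxA1Treg replicate 3 (0.00202) and with the values as deposited (0.0295).

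Gimap8 took a middle place, at 9.95, 9.88 and 9.93 on the iFoxA1Treg arrays. It was 1.31-fold higher than in nFoxA1Treg (limma adjusted p = 0.00463) and 1.2-fold higher than in Treg (limma adjusted p = 0.0369), and its difference of -0.20 from EncT was not called (limma adjusted p = 0.103). Without EncT replicate 2 the difference from EncT passed the threshold (0.000308), as it did with the values as deposited (0.0283). The call against Treg ended without any single array except Treg replicate 2 (0.0550 to 0.0936) and with the values as deposited (0.123). Gimap5 read 6.19, 6.29 and 6.34 and was called against none of the other groups (limma adjusted p = 0.405 against EncT), except without EncT replicate 2 (0.0268).

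Counted over the family, 5 probe sets were higher and 4 lower on the iFoxA1Treg arrays than in nFoxA1Treg, where 72.2% of all probe sets were called (30.9% higher and 41.3% lower). With the values as deposited, and without nFoxA1Treg replicate 3, the split was 4 higher and 5 lower. Against Treg, 4 were higher and 4 lower, where 71.7% were called (31.2% higher and 40.5% lower). In each of the 3 comparisons 9 of the 11 did not overlap, where 71.6% of all probe sets did not overlap against EncT, 76.2% against nFoxA1Treg and 76.2% against Treg. These 3 comparisons share the iFoxA1Treg arrays.

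**Figure D4:**
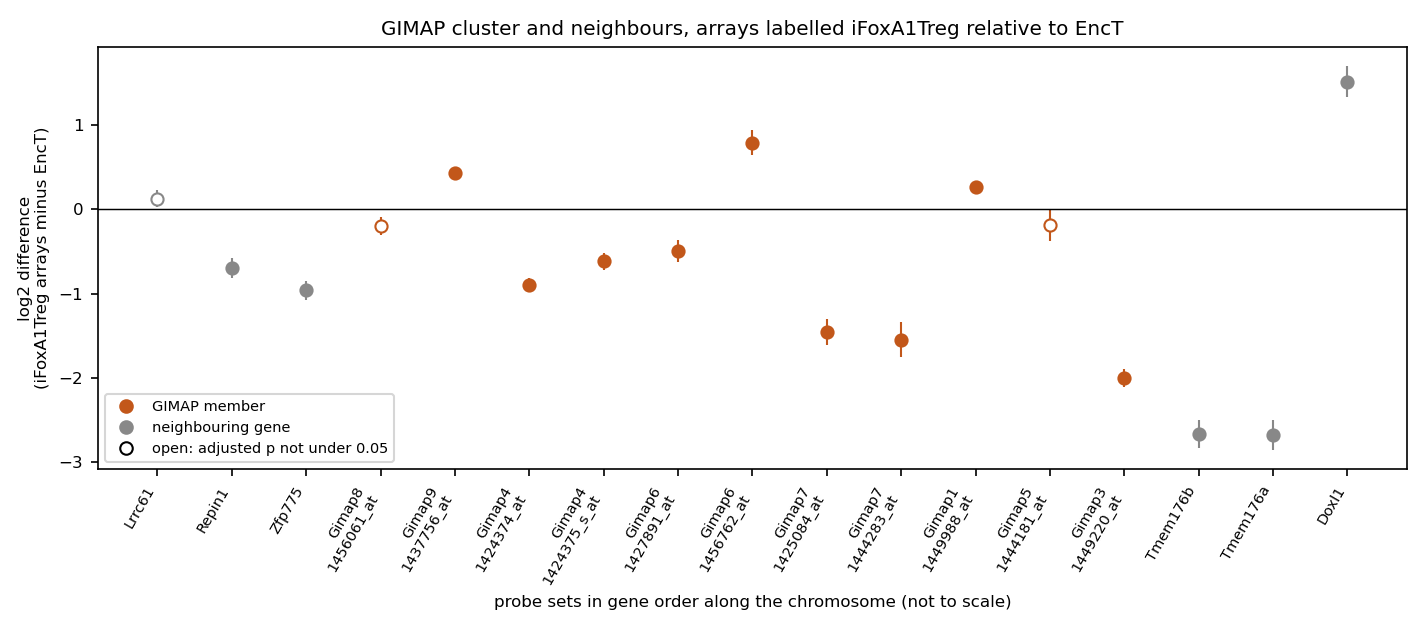
Log2 difference of the arrays labelled iFoxA1Treg minus EncT (y axis, bars for the standard error) for the GIMAP probe sets and their neighbouring genes in chromosome order (x axis, not to scale), with open points for an adjusted p not under 0.05. Gimap9, which is higher, stands next to Gimap4, which is lower, and Gimap1, which is higher, next to Gimap7, which is lower. Gimap5, which was not called, separates Gimap1 from Gimap3, which is lower. The Gimap6 probe sets, between Gimap4 and Gimap7, point in opposite directions. The nearest genes past Gimap3, Tmem176b and Tmem176a, are lower still at -2.66 and -2.67.

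Some neighbouring members thus differed in direction along the cluster, and the genes around it were measured for comparison. Of the 5 protein-coding genes on each side, 8 were on the array and 6 passed the filter. None of the 6 was called in nFoxA1Treg or in Treg against EncT (0 of 6 in limma in each), where 18.1% and 14.7% of all genes were called, and their median differences were 0.05 and -0.06. Tmem176b, a membrane protein gene next to Gimap3, came nearest, at -0.39 in nFoxA1Treg (adjusted p = 0.130) and -0.49 in Treg (adjusted p = 0.0686, limma). On the iFoxA1Treg arrays against EncT, Repin1, Zfp775, Tmem176b and Tmem176a were lower and Doxl1 was higher, where 71.7% of all genes were called. Tmem176b averaged 7.71 ± 0.05 on the iFoxA1Treg arrays, against 10.37 ± 0.48 in EncT (SD, n = 3 each), and Tmem176a 6.61 ± 0.05, against 9.28 ± 0.52 in EncT (SD, n = 3 each).

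Reported partners of GIMAP proteins and regulators of lymphocyte survival were followed as a list of 14 genes, of which 13 passed the filter. In nFoxA1Treg against EncT 2 of 13 fell and 0 rose, a share near that of all genes called (18.1%), with a median of -0.07 against -0.0045 over all genes. The 2 were Gabarap (log2 difference -0.23, limma adjusted p = 0.0105) and Gabarapl2 (-0.26, limma adjusted p = 0.0219), which join the membranes of autophagosomes, and GABARAPL2 is the protein that GIMAP6 binds in human cells. In Treg against EncT 2 of 13 fell and 0 rose, again near the share of all genes called (14.7%): Gabarapl2 (-0.26, limma adjusted p = 0.0256) and Gabarapl1 (-0.29, limma adjusted p = 0.0446), with a median of -0.09 against -0.0038 over all genes. On the iFoxA1Treg arrays 4 rose and 7 fell against EncT, where 71.7% of all genes were called, with a median of -0.18, and the smallest p-values were those of the survival factor Mcl1 (1.06 higher), the T cell kinase Prkcq (-0.71) and Gabarapl1 (-1.0).

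GIMAP genes are active in resting T cells, and 15 genes of naive and quiescent T cells were followed as well, 12 of which passed the filter. In nFoxA1Treg against EncT 5 fell and 1 rose, where 18.1% of all genes were called, with a median of -0.22. The falls with the smallest p-values were those of Il7r, the receptor of the survival cytokine IL-7 (-0.80, limma adjusted p = 6.41e-05), and of the growth inhibitors Btg2 (-1.46, limma adjusted p = 0.000117) and Tob1 (-0.68, limma adjusted p = 0.000697), and the rise was that of Ccr7, a receptor for homing to lymph nodes (0.38, limma adjusted p = 0.0447). In Treg against EncT 5 also fell and 1 rose, where 14.7% of all genes were called, with a median of -0.20: Btg2 (-1.33), Tob1 (-0.58) and Il7r (-0.40) fell and Ccr7 (0.53) rose. On the iFoxA1Treg arrays 8 of 12 were higher and 1 was lower than in EncT, a number of calls near the 71.7% of all genes called, with a median of 0.76 against -0.024 over all genes. The smallest p-values of the list there were those of the transcription factors Foxp1 (2.74) and Klf2 (6.67) and of Ccr7 (3.06). The iFoxA1Treg arrays were low in T cell markers and high in those of B cells, and the part of this mixture in the list was not tested. Klf2 averaged 4.02 in EncT, 3.50 in nFoxA1Treg and 3.42 in Treg, all below the filter level of 4.05, and 10.69 on the iFoxA1Treg arrays. It passed the filter on the mean of all 12 arrays only through the iFoxA1Treg arrays, so its higher call there is no independent support. The size of its difference depends on the noise in EncT.

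The family's mean profile was compared with 12601 other genes over the arrays. Over all 12 arrays it averages members that went in opposite directions on the iFoxA1Treg arrays, so it does not follow each member. Gimap9 and Gimap7 on 1425084_at, for example, correlated at -0.81 with each other over these 12 arrays. Over all 12 arrays the highest correlations with it were those of Tbl1x (0.953), S1pr4 (0.952), Dnajc15 (0.95), Ddx46 (0.946) and Igf1r (0.944). Over the 9 arrays of nFoxA1Treg, Treg and EncT they were those of Ptpn18 (0.986), Igf1r (0.986), Slc2a3 (0.980), Epsti1 (0.978) and Slc35e2 (0.976). Igf1r, the receptor of insulin-like growth factor, was the only gene in both groups of 5. These are the extremes of many genes over arrays that fall into 4 groups, and they were not tested.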

How the data were processed

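Total RNA of 12 samples was hybridised to Mouse430_2 arrays, per the labels' protocols after Trizol extraction and 3′ one-cycle amplification. The deposited values are log2 probe set signals. PLIER, which summarises the probes of a probe set, is named per the submitters' processing notes. For its version and any further scaling, the detail is not given in the sources used here. That the base is 2 was inferred from the range of the values. The table held 45037 probe sets: 34945 had 1 gene in the array annotation, 932 several and 9160 none, and 34741 matched the RefSeq gene table. Values were quantile normalized and the upper 60% by mean kept. Groups were compared in limma 3.58.1 under R 4.3.3 (1 mean per group over 12 arrays, 8 residual degrees of freedom, eBayes with an intensity trend), two-sided, with Benjamini-Hochberg adjustment over 27022 probe sets in each comparison and a threshold of 0.05, and the fit was tested on simulated data. Calls of other genes use their brightest probe set (12609 genes). Named genes were all members, 5 neighbours on each side, the 5 genes most like the family over 12 and over 9 arrays, and, of each list, the called genes with the 3 smallest adjusted p. A gene named outside this rule, Ccr7 in nFoxA1Treg and Treg, was chosen after its values were seen, as were Tmem176b and Tmem176a for their levels. Members and lists were chosen with earlier results of these data known. Alternatives changed the normalization, filter, log floor, arrays fitted, probe set choice, replicate block and each array left out in turn. The number of arrays limits the precision.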

Additional observations from a re-analysis of the deposited data

How the results depend on the processing

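Over 939 recomputed differences of single probe sets, 877 kept their side of the threshold, 51 lost the call and 11 gained it. The sign turned in 14, which belong to 9 differences, and 0 of these 14 were called as reported or under the alternative. The counts of called probe sets stayed within 1.5 times the reported count under all alternatives run, except in nFoxA1Treg against EncT, where 3 were called with only the 6 arrays of these groups, and in Treg against EncT, where 5 were called without Treg replicate 2. The cause was not tested. With each array left out in turn, the counts ran from 4 to 7 in nFoxA1Treg against EncT, from 5 to 11 in Treg against EncT, from 0 to 0 in nFoxA1Treg against Treg, from 8 to 9 in iFoxA1Treg against nFoxA1Treg, from 6 to 8 in iFoxA1Treg against Treg and from 9 to 11 in iFoxA1Treg against EncT. With replicate numbers as a block the counts were 5, 7, 0, 9, 8 and 9 in that order of comparisons. Same-numbered arrays of different groups deviated together in 3 of 18 pairs (correlation over 0.1, range -0.189 to 0.207). The labels state no pairing, and a cut-off on these correlations cannot show whether same-numbered arrays were handled together. In Treg against EncT, Gimap4 on 1424375_s_at (adjusted p = 0.0582) and Gimap6 on 1427891_at (0.0603) were not called under the block. Without a filter, calls were lost in Treg against EncT for Gimap4 on 1424375_s_at (0.0773) and Gimap6 on 1427891_at (0.0766) and 1456762_at (0.0803), and in iFoxA1Treg against Treg for Gimap8 (0.0582) and Gimap4 on 1424375_s_at (0.0549). In Treg against EncT, the fit to the 9 arrays without iFoxA1Treg lost the same Gimap4 (0.0616) and Gimap6 (0.0628 and 0.0677) probe sets, values as deposited lost Gimap6 on 1427891_at (0.0553), and only the 6 arrays lost Gimap6 on 1456762_at (0.106). On the log2(value + 16) scale, Gimap4 on 1424374_at was called in nFoxA1Treg against EncT (0.0436).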
